A study of Homo sapiens with 9 samples.

Results

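The aryl hydrocarbon receptor (AHR) and CYP1 genes are described here in 9 RNA-seq libraries of human neural crest-like cells. The 8 genes, CYP1A1, CYP1A2, CYP1B1, AHR, AHRR, ARNT, ARNT2 and TIPARP, were taken by symbol from 25593 loci. They were chosen by their FPKM levels in these same libraries, in which CYP1A1 differed strongly between media, so their levels are given as a description, with no test.

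AHR is a ligand-activated transcription factor that waits in the cytoplasm with chaperones. When a ligand binds, it moves to the nucleus, pairs with ARNT and binds short DNA elements near target genes, of which the CYP1 genes are the classic examples. CYP1 enzymes oxidize aromatic compounds, oestrogens and some AHR ligands themselves, while AHRR and TIPARP are targets that feed back to restrain the receptor.

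H9, an established line of human embryonic stem cells, was the 1 line behind all cultures. H9 clumps spent 6 days in chemically defined medium with 10 µM SB431542, which blocks TGF-β, Activin and Nodal receptor kinases, so every group had met the inhibitor before expansion. The growth protocol has CD271-high, CD73-negative cells sorted and then grown on fibronectin under 5% oxygen, although the samples are labelled by cell type as positive for both markers. Cells of F_FSB were grown for 4 passages with FGF2 and SB431542 and then for 3 more with FGF2 alone. Cells of FSB were grown with FGF2 and SB431542 throughout. Cells of F were grown with FGF2 alone. FGF2 was used at 5 to 10 ng/ml and SB431542 at 3 to 5 µM, and all cultures were harvested at passage 6 to 7. Each group had 3 libraries, called biological replicates in the design text. The sample titles number them as cultures 1 to 3 of each medium. Separate sorts or differentiations are not stated, so p-values measure the spread between these cultures of 1 line. No library from the start of expansion was analysed here, so higher and lower compare groups with each other.

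Values are the deposited FPKM, fragments scaled to transcript length and to the mapped fragments of each library. The tables hold no fragment counts. Relative depth was 58.9% to 96.6% of that of FSB replicate 1 in F_FSB, 94.2% to 100.0% in FSB and 81.1% to 95.8% in F, and F_FSB replicate 2 was the shallowest. The FPKM values of that library also summed to 506146, against 361026 to 395596 in the others. Neural crest markers were present, with 7 of 10 passing the filter on low values (at least 1 FPKM in at least 3 libraries) and summed levels of 141 to 166 FPKM in F_FSB, 429 to 465 in FSB and 169 to 199 in F. The defining crest genes SOX10 and FOXD3 were near 0 in group means, at no more than 0.612 FPKM. Markers of hepatocytes, a cell type known for CYP1A expression, and of endoderm summed to at most 0.397 FPKM in any library, with FOXA2 and HNF4A listed at 0 in all 9. Epithelial markers summed to at most 1.46 FPKM. The 6 pluripotent cell markers summed to 1.61 to 4.87 FPKM in F_FSB, 84.6 to 104 in FSB and at most 7.84 in F. LIN28A averaged 0.0301 FPKM in F_FSB, 79.5 in FSB and 0.011 in F, DPPA4 averaged 2.62, 8.37 and 2.94 FPKM in the same order, and ZFP42 averaged 0.61, 3.83 and 0.612 FPKM. POU5F1, NANOG and SOX2 stayed at or under 0.385 FPKM in every group mean. Their part in the levels below was not tested. In bulk RNA, a larger share of cells with a transcript and more of it per cell cannot be told apart.

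CYP1A1 (chromosome 15, 75011883 to 75017877, GRCh37) encodes the best known AHR-induced enzyme, a monooxygenase of aromatic hydrocarbons. Its levels were 0.346, 0.404 and 0.0758 FPKM in F_FSB, 137, 161 and 124 FPKM in FSB, and 0.0677, 0.0995 and 0.0955 FPKM in F. Every FSB library lay far above every library of the other groups, while F_FSB and F overlapped. Group means were 0.275 ± 0.175 FPKM in F_FSB, 141 ± 18.6 in FSB and 0.0876 ± 0.0173 in F (SD, n = 3 each). The FSB mean was 1610-fold that of F and 511-fold that of F_FSB. On the log2(FPKM + 1) scale the difference was -6.80 for F_FSB minus FSB, 7.02 for FSB minus F and 0.22 for F_FSB minus F, with an SE of 0.13 from the common fit.

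The FSB level was high among all loci as well. CYP1A1 exceeded 37.7% to 44.7% of loci in F_FSB libraries, 98.2% to 98.6% in FSB libraries and 35.9% to 38.2% in F libraries. In F the 95% intervals that Cufflinks gives beside each value began between 0 and 0.0183 FPKM and ended at 0.165 FPKM or less. In FSB the deposited value lay above its own interval in each library, for example 137 FPKM against an interval of 124 to 133. The gene passed the filter on low values only through the FSB libraries.

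The DNA upstream of CYP1A1 is shown because it holds the AHR elements that the gene is known for. The core letters are GCGTG, or CACGC on the other strand, in capitals below, and the same letters are part of the hypoxia element core. The promoter sequence is from RefSeq (GRCh38.p14, chr15:74725529-74725778, minus strand, the 250 bases before the start). The upstream window is from GRCh37 (chr15:75018685-75018984, minus strand), at positions -1107 to -808 from the start of the deposited locus.
CYP1A1 promoter: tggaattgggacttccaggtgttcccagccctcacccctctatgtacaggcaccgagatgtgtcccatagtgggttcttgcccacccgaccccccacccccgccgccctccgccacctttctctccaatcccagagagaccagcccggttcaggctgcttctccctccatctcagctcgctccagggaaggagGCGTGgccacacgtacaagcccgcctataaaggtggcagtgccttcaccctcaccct
CYP1A1 upstream window: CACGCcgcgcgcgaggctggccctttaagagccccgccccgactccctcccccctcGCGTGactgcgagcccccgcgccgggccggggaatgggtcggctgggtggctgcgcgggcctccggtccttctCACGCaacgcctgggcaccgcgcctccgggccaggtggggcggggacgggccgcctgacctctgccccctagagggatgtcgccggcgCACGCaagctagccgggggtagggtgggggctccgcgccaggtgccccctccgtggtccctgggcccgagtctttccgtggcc
The promoter held 1 core and the upstream window 4, of which 3 fit the longer form TNGCGTG. That window was picked as the 300 of the 1500 upstream bases with the most of the longer form. Its counts follow from that choice, and no such window was picked for CYP1A2. Over the 1500 bases upstream of the locus (chr15:75017878-75019377, minus strand), CYP1A1 had 10 cores and 5 of the longer form. Of 20136 protein-coding genes with the same window, 77.8% had at least 1 core and 0.487% had at least as many as CYP1A1, with a median of 2. The longer form was in 25.5% of windows, and 0.0199% had at least as many as CYP1A1. The window was 66.7% G and C. A match of letters is a description of the sequence and not a binding site.

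CYP1A2 (chromosome 15, 75041184 to 75048941) lies head to head with CYP1A1 and encodes the related enzyme that is chiefly hepatic and metabolizes caffeine. It stood at 0.0178, 0.381 and 0.0156 FPKM in F_FSB and at 0.421, 0.486 and 0.627 FPKM in FSB, and was listed at 0 in the 3 F libraries. All FSB libraries were the highest, and F_FSB replicate 2 came close to them. Means were 0.138 ± 0.211 FPKM in F_FSB and 0.511 ± 0.105 in FSB (SD, n = 3 each), a 3.7-fold higher mean in FSB. No fold is given against F. The gene did not pass the filter and entered no fit. The mean of CYP1A2 in FSB was thus low beside the 141 FPKM of its neighbour on the same length-corrected scale.

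The 23306 bases between the CYP1A genes (chr15:75017878-75041183) held 34 cores and 12 of the longer form. The CYP1A2 promoter is given for comparison with that of CYP1A1 (RefSeq, GRCh38.p14, chr15:74748595-74748844, plus strand).
CYP1A2 promoter: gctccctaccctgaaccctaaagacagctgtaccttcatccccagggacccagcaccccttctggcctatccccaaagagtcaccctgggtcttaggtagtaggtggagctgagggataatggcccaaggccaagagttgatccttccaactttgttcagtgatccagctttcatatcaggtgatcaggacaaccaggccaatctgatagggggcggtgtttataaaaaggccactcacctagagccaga
It has no core. In the 1500 bases upstream of CYP1A2 (chr15:75039684-75041183, plus strand) there was 1 core and none of the longer form, with 45.2% G and C. The plot of motif positions shows the contrast between the neighbouring genes.

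**Figure D1:**
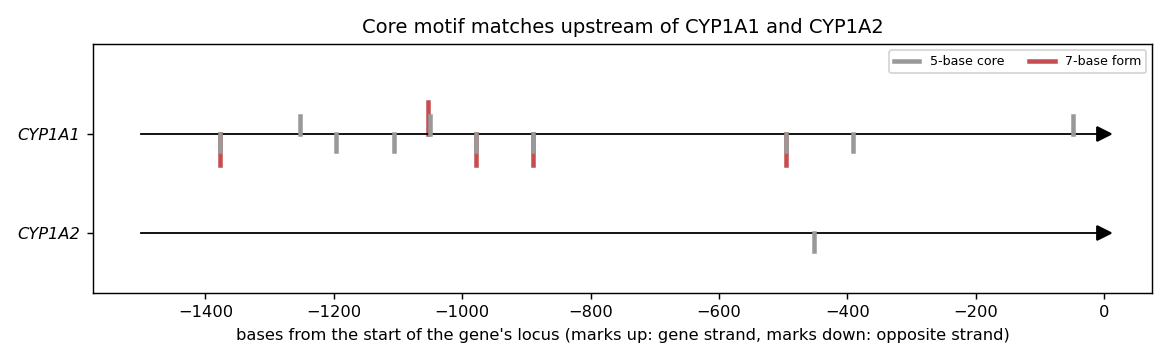
Positions of the AHR core letters in the 1500 bases before each CYP1A gene, by distance in bases from the start of the deposited locus. Grey marks are the 5-base core and red marks its 7-base form, up on the gene strand and down on the opposite strand. CYP1A1 has 10 and 5, and CYP1A2 has 1 and 0.

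CYP1B1 (chromosome 2, 38294746 to 38303323) encodes a chiefly extrahepatic CYP1 enzyme, which hydroxylates oestradiol and is also known from eye development. Its levels were 25.3, 75.3 and 28.5 FPKM in F_FSB, 8.59, 8.47 and 9.30 FPKM in FSB, and 37.7, 21.9 and 41.8 FPKM in F. All 3 FSB libraries lay below every other library, with little spread, where they had been the highest for CYP1A1. Means were 43.0 ± 28.0 FPKM in F_FSB, 8.78 ± 0.449 in FSB and 33.8 ± 10.5 in F (SD, n = 3 each). The mean was 4.9-fold higher in F_FSB than in FSB, and 3.85-fold higher in F than in FSB. Log2 differences were 2.00 for F_FSB minus FSB, -1.78 for FSB minus F and 0.22 for F_FSB minus F, each with an SE of 0.40. F_FSB replicate 2, the shallowest library and that with the largest FPKM sum, was the highest of all. Without it F_FSB minus FSB was 1.51 and F_FSB minus F was -0.27.

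The CYP1 transcripts therefore differed in composition between media. CYP1A1 made up 1.34%, 0.531% and 0.265% of the summed CYP1 FPKM in F_FSB, 93.8%, 94.7% and 92.6% in FSB, and 0.179%, 0.452% and 0.228% in F. CYP1B1 made up 98.6% to 99.7% of the sum in F_FSB, 4.99% to 6.95% in FSB and 99.5% to 99.8% in F. The sum itself was 25.7, 76.1 and 28.6 FPKM in F_FSB, 134 to 170 FPKM in FSB and 22.0 to 41.9 FPKM in F. FSB libraries thus had both the highest CYP1 sum and the lowest CYP1B1. CYP1A2 never exceeded 0.501% of the sum.

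**Figure D2:**
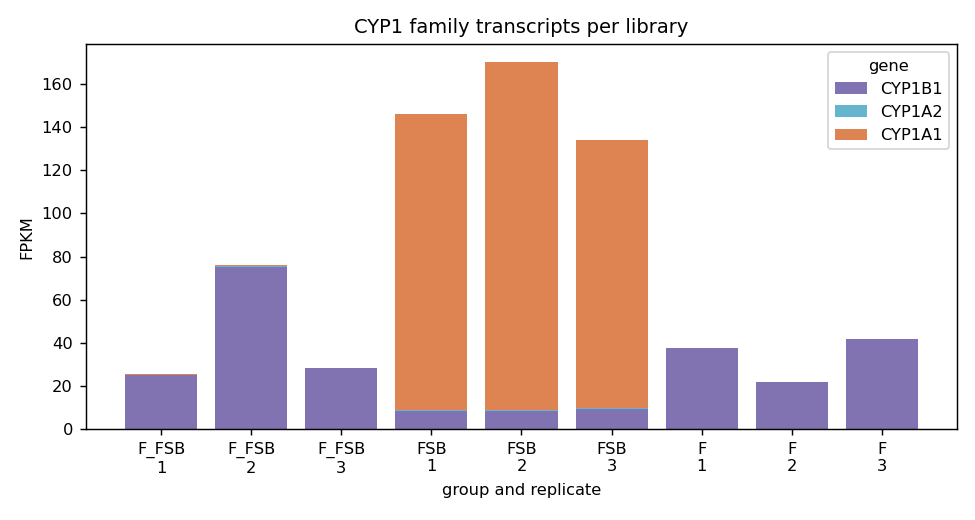
CYP1 transcript levels in each library, in FPKM, as stacked bars with 1 colour for each gene. The FSB bars are mostly CYP1A1 (92.6% to 94.7%), and the F_FSB and F libraries are almost entirely CYP1B1.

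AHR itself (chromosome 7, 17338276 to 17385775), the receptor, was expressed in all media. It stood at 44.6, 34.8 and 26.0 FPKM in F_FSB, 32.4, 41.2 and 33.9 FPKM in FSB, and 40.5, 8.40 and 10.7 FPKM in F. F replicates 2 and 3 were the lowest of the 9, while F replicate 1 was among the highest, so all groups overlapped. Means were 35.1 ± 9.32 FPKM in F_FSB, 35.8 ± 4.70 in FSB and 19.9 ± 17.9 in F (SD, n = 3 each). The log2 difference was -0.05 for F_FSB minus FSB, 1.14 for FSB minus F and 1.09 for F_FSB minus F, with an SE of 0.50. Without F replicate 1, FSB minus F was 1.80 and F_FSB minus F was 1.75. The difference of F_FSB minus FSB changed sign with the scaling, from -0.15 with the same FPKM sum to 0.10 with median ratios. Between F_FSB and FSB, AHR transcript levels differed by less than the spread between libraries. Any part of AHR levels in those of CYP1A1 was not tested.

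F replicate 1 was also close to some F_FSB libraries in its whole profile. Across genes, which are not independent replicates, its Pearson correlation was 0.967, 0.929 and 0.953 with F_FSB replicates 1, 2 and 3, and 0.944 and 0.943 with F replicates 2 and 3. Results that turn on this library are given with and without it.

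ARNT (chromosome 1, 150782181 to 150849244), the dimer partner of AHR and of the hypoxia factors, had the narrowest range of group means among the 7 tested genes. It was at 14.1, 14.3 and 12.8 FPKM in F_FSB, 11.8, 11.2 and 12.6 FPKM in FSB, and 13.1, 13.6 and 12.8 FPKM in F. The FSB libraries were the lowest by a narrow margin. Means were 13.7 ± 0.833 FPKM in F_FSB, 11.9 ± 0.719 in FSB and 13.2 ± 0.389 in F (SD, n = 3 each). Log2 differences were 0.20 for F_FSB minus FSB, -0.14 for FSB minus F and 0.05 for F_FSB minus F, with an SE of 0.08. The median of all genes tested differed by -0.13, 0.14 and -0.0021 in the same comparisons. With scaling by median ratios ARNT differed by 0.34 and -0.29 in the first and second of these, and with scaling to the same FPKM sum it differed by -0.09 for F_FSB minus F.

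ARNT2 (chromosome 15, 80696692 to 80890278) encodes a related partner that is best known from neural tissue. Its values were 5.38, 3.37 and 2.77 FPKM in F_FSB, 2.23, 2.15 and 1.26 FPKM in FSB, and 6.34, 2.79 and 5.72 FPKM in F. FSB was lowest in all 3 libraries, and F_FSB and F overlapped. Means were 3.84 ± 1.37 FPKM in F_FSB, 1.88 ± 0.536 in FSB and 4.95 ± 1.89 in F (SD, n = 3 each). Log2 differences were 0.73 for F_FSB minus FSB, -1.01 for FSB minus F and -0.28 for F_FSB minus F, with an SE of 0.30. On the same length-corrected scale ARNT exceeded ARNT2 by 2.62 to 4.62 times in F_FSB, 5.19 to 9.98 times in FSB and 2.07 to 4.87 times in F. AHR exceeded ARNT by 2.03 to 3.15 times in F_FSB and 2.69 to 3.69 times in FSB, and its ratio to ARNT was 3.09, 0.617 and 0.836 in F.

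The feedback genes did not share the CYP1A1 pattern. AHRR (chromosome 5, 304291 to 438406), the AHR repressor, competes for ARNT and is a target of the receptor in many cells. It was at 10.3, 6.69 and 6.87 FPKM in F_FSB, 5.15, 5.16 and 7.18 FPKM in FSB, and 7.22, 5.24 and 3.36 FPKM in F. The groups overlapped in each comparison. Means were 7.97 ± 2.06 FPKM in F_FSB, 5.83 ± 1.17 in FSB and 5.27 ± 1.93 in F (SD, n = 3 each), with log2 differences of 0.38 for F_FSB minus FSB, 0.16 for FSB minus F and 0.54 for F_FSB minus F (SE 0.25). FSB minus F was -0.08 without F replicate 3 and 0.38 without F replicate 1. Its locus overlaps PDCD6, at 46.6 FPKM in F_FSB, 46.8 in FSB and 48.8 in F. How fragments from the shared stretch were assigned is not stated, and the AHRR values are uncertain for that reason.

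TIPARP (chromosome 3, 156392205 to 156424559), an ADP-ribosyltransferase that inactivates AHR, varied more within groups than between them. It stood at 24.0, 11.5 and 5.14 FPKM in F_FSB, 8.15, 8.71 and 12.5 FPKM in FSB, and 27.3, 3.69 and 5.30 FPKM in F. Replicate 1 of F and of F_FSB were the highest of the 9, and FSB lay inside the range of both other groups. Means were 13.5 ± 9.58 FPKM in F_FSB, 9.77 ± 2.34 in FSB and 12.1 ± 13.2 in F (SD, n = 3 each). Log2 differences were 0.23 for F_FSB minus FSB, 0.17 for FSB minus F and 0.40 for F_FSB minus F, with an SE of 0.71. The sign of FSB minus F depends on the scale, since the FSB mean in FPKM was 0.808 times that of F. FSB minus F was 0.97 without F replicate 1, -0.33 without F replicate 2 and -0.12 without F replicate 3. Leaving out F replicate 1 gave 1.19 for F_FSB minus F, and leaving out F replicate 2 gave -0.10. Without F_FSB replicate 1, F_FSB minus FSB was -0.28. It overlaps the antisense locus TIPARP-AS1, which stayed under 0.1 FPKM in group means.

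The promoter at the first RefSeq start of each feedback gene is shown because it also carries the core letters. The levels of neither gene separated the media. The regions are from GRCh38.p14, plus strand (chr5:321464-321713 for AHRR and chr3:156674340-156674589 for TIPARP). AHRR start 2 held 2 cores, and TIPARP starts 2 and 3 held 0. The deposited AHRR locus begins at 304291 (GRCh37), so the start shown need not be the start behind its values.
AHRR promoter: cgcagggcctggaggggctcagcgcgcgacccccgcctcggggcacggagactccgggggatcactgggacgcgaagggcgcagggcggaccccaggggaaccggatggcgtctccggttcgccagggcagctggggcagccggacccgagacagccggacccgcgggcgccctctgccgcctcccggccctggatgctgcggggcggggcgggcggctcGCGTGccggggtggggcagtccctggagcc
TIPARP promoter: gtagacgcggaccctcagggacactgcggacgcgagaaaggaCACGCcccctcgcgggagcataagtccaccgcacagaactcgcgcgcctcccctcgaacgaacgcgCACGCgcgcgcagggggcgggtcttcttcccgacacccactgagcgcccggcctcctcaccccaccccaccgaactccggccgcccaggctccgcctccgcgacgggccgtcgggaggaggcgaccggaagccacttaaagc
Of the 8 genes, 6 had a RefSeq promoter entry and CYP1B1 and ARNT2 had none. The entries gave 9 promoters of 300 bases, of which 5, from 4 genes (AHR, AHRR, CYP1A1 and TIPARP), held a core. Of 35116 RefSeq promoters, 36.5% held the core and 5.51% the longer form. ARNT and CYP1A2 held none.

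**Figure D3:**
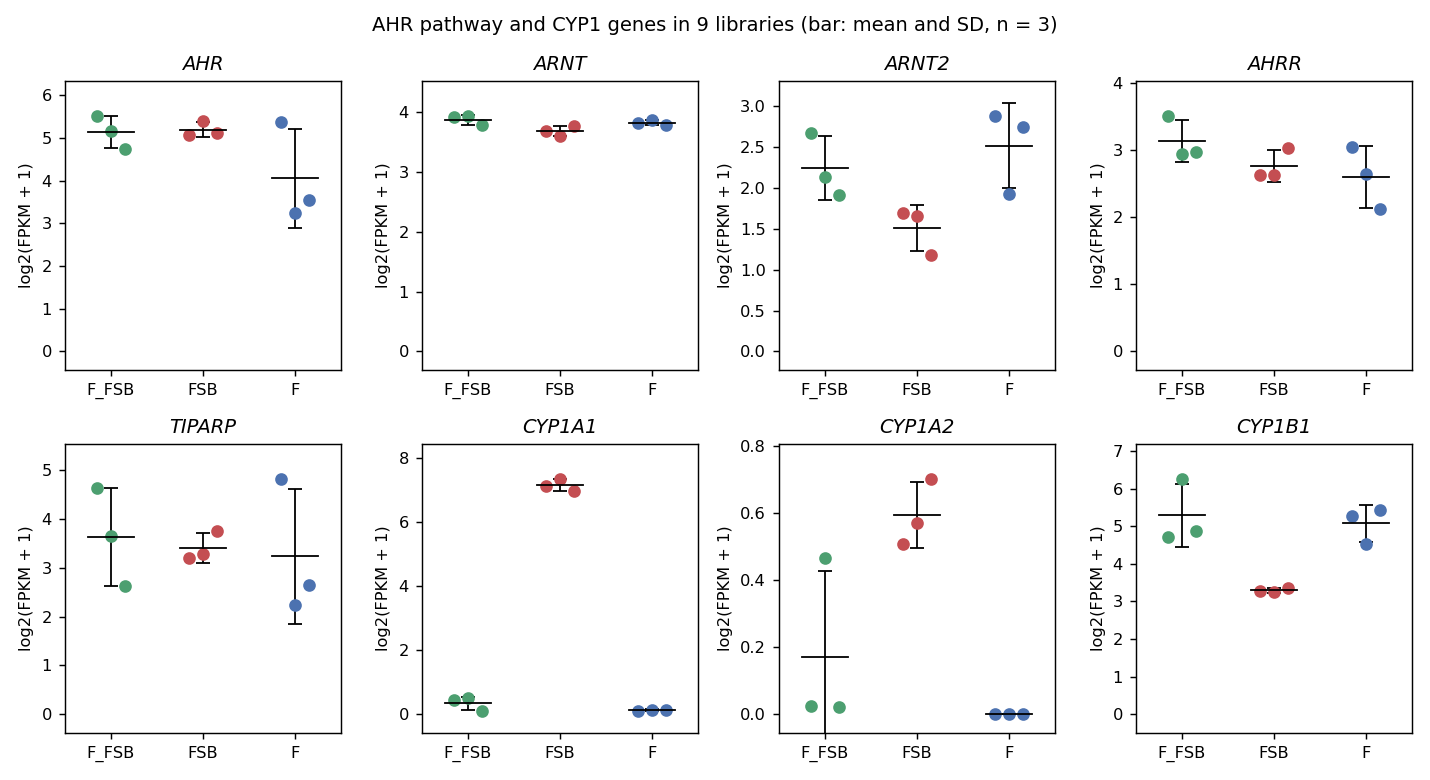
Levels of the 8 genes in every library on the log2(FPKM + 1) scale, in F_FSB, FSB and F, with points for libraries and bars for the mean and SD (n = 3). CYP1A1 is high in FSB alone, CYP1B1 and ARNT2 are lowest in FSB, AHRR and TIPARP overlap, and F replicate 1 stands apart for AHR and TIPARP.

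Taken by comparison, 7 of the 8 genes passed the filter. Between F_FSB and FSB the libraries did not overlap for 4 of them, with CYP1B1, ARNT and ARNT2 higher and CYP1A1 lower in F_FSB. Of all 13216 genes tested, 55.8% did not overlap there, 19.2% higher and 36.6% lower. Between FSB and F the libraries did not overlap for the same 4 genes, with CYP1A1 higher and the other 3 lower in FSB, against 57.9% of all genes, 38.7% higher and 19.2% lower. Between F_FSB and F all 7 overlapped, while 13.0% of all genes did not, 6.28% higher and 6.76% lower. These counts use the values by which the genes were chosen, so nothing is read from them. The 3 comparisons share libraries, so FSB values enter the first 2 of them and are not independent.

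The rest of the pathway was described from 8 lists holding 118 genes, of which 91 passed the filter and were tested with limma (two-sided, Benjamini-Hochberg adjustment over 13216 genes, threshold 0.05). Of all genes tested, 13.7% were higher and 28.2% lower in F_FSB than in FSB, and 28.5% were higher and 13.4% lower in FSB than in F. Between F_FSB and FSB, 18 rose and 32 fell in F_FSB, 54.9% of those tested against 41.8% of all genes. Between FSB and F, 31 rose and 22 fell in FSB, 58.2% against 41.9%. The lists were chosen with earlier results of these data known, so nothing is read from the excess over all genes. Between F_FSB and F none of the 91 passed with limma or with the replicate number as a block, against 0.00757% of all genes with limma. At an unadjusted p under 0.05 with limma there were 15 of the 91, beside 1195 of all 13216 genes. Nothing is read from that contrast either. Scaling moved the split between FSB and F to 22 higher and 28 lower with median ratios and to 24 and 27 with quantile normalization, and that between F_FSB and FSB to 23 higher and 24 lower and to 23 and 26. Between FSB and F the lower count was 13 without FSB replicate 1 and 14 without FSB replicate 2. Without F replicate 1, 3 listed genes passed between F_FSB and F. Of the 91, 8 would fail the filter if the libraries of 1 group were left out. Without them, 17 of 83 rose and 29 fell in F_FSB relative to FSB, and 28 rose and 18 fell in FSB relative to F.

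Other described AHR targets included the largest positive differences of the 8 lists between FSB and F. Of 27 listed, 18 passed the filter, and 3 of those (CYP2S1, ABCG2 and VAV3) passed only through FSB libraries. In FSB 10 were higher and 3 lower than in F, beside 28.5% of all genes higher and 13.4% lower. The median log2 change was 0.54 against 0.14 for all genes. EREG would fail the filter without F_FSB or F. Without it and the 3 that passed only through FSB, 7 of 14 were higher and 2 lower, with a median of 0.41. In F_FSB 1 of these 14 was higher and 6 lower than in FSB, with a median of -0.36. Median ratios gave 8 higher and 3 lower in FSB than in F, quantile normalization 9 and 3 and the same FPKM sum 8 and 2. The lower count was 1 without F replicate 1 or FSB replicate 2 and 0 without FSB replicate 1. In F_FSB 1 of the 18 was higher and 9 were lower than in FSB, beside 13.7% of all genes higher and 28.2% lower. The median was -0.73 against -0.13, and 2 were higher without F replicate 2 or without F_FSB replicate 2 or 3. Median ratios gave 2 higher and 8 lower, and quantile normalization 3 and 8. The 9 that did not pass the filter included UGT1A1, UGT1A6, GSTA1 and GSTA2, which conjugate drugs and were listed at 0 in every library, and ALDH3A1. None of the 9 exceeded 0.664 FPKM in any library.

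NQO1, a quinone reductase under AHR and NRF2, had the highest mean of these targets in FSB. It was at 179, 202 and 138 FPKM in F_FSB, 735, 858 and 785 FPKM in FSB, and 86.6, 58.8 and 54.6 FPKM in F. The groups did not overlap, with F_FSB between FSB and F. NQO1 fell by 2.20 on the log2 scale in F_FSB relative to FSB (limma, BH-adjusted p = 0.000253) and was higher by 3.58 in FSB than in F (limma, BH-adjusted p = 3.58e-05). In F_FSB it was higher than in F by 1.38, which did not pass (limma, BH-adjusted p = 0.191). Without F replicate 1 that difference was 1.58 and passed (limma, BH-adjusted p = 0.0246).

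ABCG2, an efflux transporter of drugs and porphyrins, had the largest difference of these targets between FSB and F. It averaged 0.466 ± 0.121 FPKM in F_FSB, 34.6 ± 6.11 in FSB and 0.284 ± 0.168 in F (SD, n = 3 each), with log2 differences of -4.59 for F_FSB minus FSB and 4.79 for FSB minus F. ABCG2 and CYP2S1 passed the filter only through FSB, so no test is given for either. SLC7A5, a transporter of large neutral amino acids including tryptophan, averaged 3.06 ± 0.336 FPKM in F_FSB, 32.5 ± 10.2 in FSB and 2.90 ± 0.879 in F, with log2 changes of -3.00 and 3.07 (limma, BH-adjusted p = 0.000184 and 0.000156). CYP2S1, another dioxin-inducible P450, averaged 0.163 ± 0.0468 FPKM in F_FSB, 3.22 ± 0.601 in FSB and 0.206 ± 0.0549 in F, with log2 differences of -1.85 and 1.80. All 3 were higher in every FSB library than in any other library.

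Chaperones and transport factors hold AHR in the cytoplasm and carry it through the nuclear pore. All 7 listed were tested, and 3 were higher and none lower in FSB than in F, or 5 higher without F_FSB replicate 2, with a median log2 change of 0.49. The 3 of 7 stand beside 28.5% of all genes that were higher. With median ratios or quantile normalization 1 was lower. In F_FSB none was higher and 4 were lower than in FSB, beside 13.7% of all genes higher and 28.2% lower. The lower count was 2 without FSB replicate 1 or 2 or F_FSB replicate 1 or 3. HSP90AA1, the inducible HSP90, averaged 195 ± 42.4 FPKM in F_FSB, 317 ± 46.5 in FSB and 174 ± 26.0 in F (SD, n = 3 each; log2 change 0.86 for FSB minus F, limma, BH-adjusted p = 0.00938). HSP90AB1 averaged 295 ± 50.8 FPKM in F_FSB, 427 ± 66.4 in FSB and 303 ± 40.7 in F and did not pass between FSB and F (limma, BH-adjusted p = 0.0565), but did without FSB replicate 3 or F_FSB replicate 2. The import receptor KPNB1 rose by 0.86 and the export receptor XPO1 by 0.57 in FSB relative to F (limma, BH-adjusted p = 0.000594 and 0.00105). KPNB1 fell by 0.88 and XPO1 fell by 0.73 in F_FSB relative to FSB (limma, BH-adjusted p = 0.000543 and 0.000394).

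Coregulators bind AHR and ARNT at target genes. Of 14 tested, 6 were higher and 3 lower in FSB than in F, beside 28.5% of all genes higher and 13.4% lower, and the median log2 change was 0.22. With F replicate 2 left out none was lower, and 1 was lower without FSB replicate 1 or 2 or F replicate 3, and the higher count was 4 with quantile normalization, with 5 lower. RELB would fail the filter without F, and apart from it 6 of 13 were higher and 2 lower, with a median of 0.22. NRIP1, a corepressor of nuclear receptors, averaged 4.10 ± 0.767 FPKM in F_FSB, 29.5 ± 10.2 in FSB and 4.22 ± 0.724 in F (SD, n = 3 each), with log2 changes of -2.54 for F_FSB minus FSB and 2.50 for FSB minus F (limma, BH-adjusted p = 0.000235 and 0.000231). KLF6, a zinc finger factor, SMARCA4, a chromatin remodelling ATPase, and RB1, the retinoblastoma protein, rose by 0.86, 0.86 and 0.78 in FSB relative to F (limma, BH-adjusted p = 0.000377, 0.00266 and 0.00304). In F_FSB 2 coregulators were higher and 6 lower than in FSB, beside 13.7% of all genes higher and 28.2% lower. The higher count was 0 or 1 when any library except FSB replicate 3 or F_FSB replicate 3 was left out. Median ratios and quantile normalization each gave 2 higher and 3 lower.

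Genes in the list of other bHLH-PAS genes, most of which share the dimerization domains of AHR and ARNT, were more often lower than higher in FSB. PER1, PER2 and PER3 are in the list for their PAS domain and lack the bHLH domain. NCOA1, NCOA2 and NCOA3, which have both, are counted with the coregulators. Of 15 listed, 12 passed the filter. Of these, 1 was higher and 8 lower in FSB than in F, beside 28.5% of all genes higher and 13.4% lower. The median log2 change was -0.88 against 0.14 for all genes. SIM2 and NPAS3 would fail the filter without F, and apart from them 1 of 10 was higher and 6 were lower, with a median of -0.51. In F_FSB 7 of the 12 were higher and 1 was lower than in FSB, beside 13.7% of all genes higher and 28.2% lower. The median was 0.74 against -0.13. HIF3A, a modulator of the hypoxia response, averaged 7.10 ± 1.73 FPKM in F_FSB, 0.535 ± 0.195 in FSB and 5.52 ± 1.76 in F (SD, n = 3 each), with log2 changes of 2.39 for F_FSB minus FSB and -2.06 for FSB minus F (limma, BH-adjusted p = 0.000255 and 0.000429). ARNTL2, a clock partner, fell by 1.26 in FSB relative to F (limma, BH-adjusted p = 0.000889). SIM2, a developmental regulator, was low in both F_FSB and FSB, with 0.353, 0.263 and 0.630 FPKM in F_FSB, 0.343, 0.242 and 0.399 FPKM in FSB, and 2.37, 3.73 and 2.05 FPKM in F. Its log2 differences were 0.08 for F_FSB minus FSB, -1.46 for FSB minus F and -1.38 for F_FSB minus F. PER1, a clock repressor, was the 1 gene of the 12 called higher in FSB than in F, by 0.79 (limma, BH-adjusted p = 0.000423). With no filter on low values, 3 of the list were higher and 7 lower in FSB than in F, with a median of -0.34. In F_FSB 6 were then higher and 3 lower than in FSB. A filter of 5 FPKM in at least 3 libraries gave 1 higher and 3 lower, and 4 higher and 1 lower, in the same order.

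The hypoxia factors that also pair with ARNT were named after their values were seen. EPAS1 averaged 25.5 ± 16.0 FPKM in F_FSB, 1.26 ± 0.102 in FSB and 23.9 ± 11.6 in F (SD, n = 3 each), with log2 changes of 3.30 for F_FSB minus FSB and -3.35 for FSB minus F (limma, BH-adjusted p = 0.00252 and 0.0025). HIF1A averaged 122 ± 6.45 FPKM in F_FSB, 71.1 ± 2.87 in FSB and 89.5 ± 30.0 in F, and rose by 0.77 in F_FSB relative to FSB (limma, BH-adjusted p = 0.0149). F replicate 1 had 124 FPKM of HIF1A, against 67.9 and 76.9 in the other F libraries.

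Electron donors and haem enzymes, which supply P450 proteins with electrons and cofactor, were mixed. Of 14 tested, with a median log2 change of 0.11, 3 were higher and 4 lower in FSB than in F, beside 28.5% of all genes higher and 13.4% lower, or 1 and 3 without FSB replicate 2 and 1 and 4 with median ratios or quantile normalization. In F_FSB 4 were higher and 4 lower than in FSB, beside 13.7% of all genes higher and 28.2% lower. The counts were 5 and 2 with median ratios and 2 and 4 with the same FPKM sum. CYB5B, an outer mitochondrial cytochrome b5, rose by 1.02 in FSB relative to F (limma, BH-adjusted p = 0.000675). ALAD and UROS, enzymes of haem synthesis, both fell, with log2 changes of -0.62 and -0.53 (limma, BH-adjusted p = 0.00283 and 0.00614). HMOX1, which degrades haem, fell by 1.42 (limma, BH-adjusted p = 0.00181). CPOX, which also acts in haem synthesis and was named after its values were seen, rose by 0.37 (limma, BH-adjusted p = 0.0144).

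Tryptophan and kynurenine enzymes can make endogenous AHR ligands. Of 16 listed, 10 did not pass the filter, with no value above 1.02 FPKM, among them IDO1, IDO2 and TDO2, which start the pathway. Of the 6 tested, 2 were higher and 2 lower in FSB than in F, with a median log2 change of 0.25, beside 28.5% of all genes higher and 13.4% lower. Leaving out 1 library changed these counts, to 1 and 1 without F replicate 1 or FSB replicate 2 or 3, and to 2 and 1 without F replicate 3 or FSB replicate 1. CCBL1, a kynurenine aminotransferase, rose by 0.90 and AFMID, a formamidase, fell by 0.34 in FSB relative to F (limma, BH-adjusted p = 0.00562 and 0.0101). HAAO, which acts late in the pathway, fell by 1.06 and CCBL2, a related aminotransferase, rose by 0.39 (limma, BH-adjusted p = 0.023 and 0.0247). HAAO lost its call without F replicate 1 or 3 or any 1 FSB library, and CCBL2 lost its call without F replicate 1 or FSB replicate 2 or 3 and with each scaling tried. In F_FSB 2 were higher and 2 lower than in FSB, beside 13.7% of all genes higher and 28.2% lower. The counts were 1 and 2 without any 1 FSB library or F_FSB replicate 2.

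Among other xenobiotic receptors, 5 of 9 passed the filter, and PXR (NR1I2) and CAR (NR1I3) did not. CAR reached 3.9 FPKM in an F_FSB library, with a group mean of 1.35 ± 2.21. It was at most 0.106 FPKM in FSB and 0.205 in F. In FSB 2 were higher and 1 lower than in F, with a median log2 change of 0.23 and beside 28.5% of all genes higher and 13.4% lower, and 2 were lower without F_FSB replicate 2. PPARA, a fatty acid receptor, rose by 1.01, RXRA, a retinoid X receptor, rose by 0.49 and RXRB fell by 0.64 (limma, BH-adjusted p = 0.00247, 0.0151 and 0.00223), and RXRA lost its call with each scaling tried. KEAP1, the sensor that holds NRF2, averaged 15.7 ± 1.13 FPKM in F_FSB, 19.6 ± 0.563 in FSB and 16.6 ± 2.49 in F (SD, n = 3 each) and did not pass between FSB and F (limma, BH-adjusted p = 0.127). In F_FSB 1 was higher and 2 lower than in FSB, beside 13.7% of all genes higher and 28.2% lower. None was higher without FSB replicate 1 or 2 or F_FSB replicate 3.

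The relatives of TIPARP in the PARP family did not share one direction. Of 15 tested, 4 rose and 1 fell in FSB relative to F, with a median log2 change of -0.06 against 0.14 for all genes and beside 28.5% of all genes higher and 13.4% lower. Median ratios gave 3 and 5, quantile normalization 3 and 3, and leaving out F replicate 1 or 2 gave 4 and 2, or FSB replicate 3 gave 3 and 4. PARP1, the DNA damage sensor, averaged 42.6 ± 7.68 FPKM in F_FSB, 114 ± 1.94 in FSB and 42.7 ± 3.08 in F (SD, n = 3 each; log2 changes -1.42 for F_FSB minus FSB and 1.40 for FSB minus F, limma, BH-adjusted p = 0.000262 for each). PARP2 and PARP11 rose by 0.52 and 0.50 in FSB relative to F and PARP9 fell by 1.30 (limma, BH-adjusted p = 0.00861, 0.00605 and 0.00827), with the PARP11 call lost on scaling to the same FPKM sum. In F_FSB 1 was higher and 4 lower than in FSB, beside 13.7% of all genes higher and 28.2% lower. The higher count was 2 without F replicate 1 or FSB replicate 3 and 3 without F replicate 2. Median ratios gave 3 higher and 3 lower, and quantile normalization 2 and 3.

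**Figure D4:**
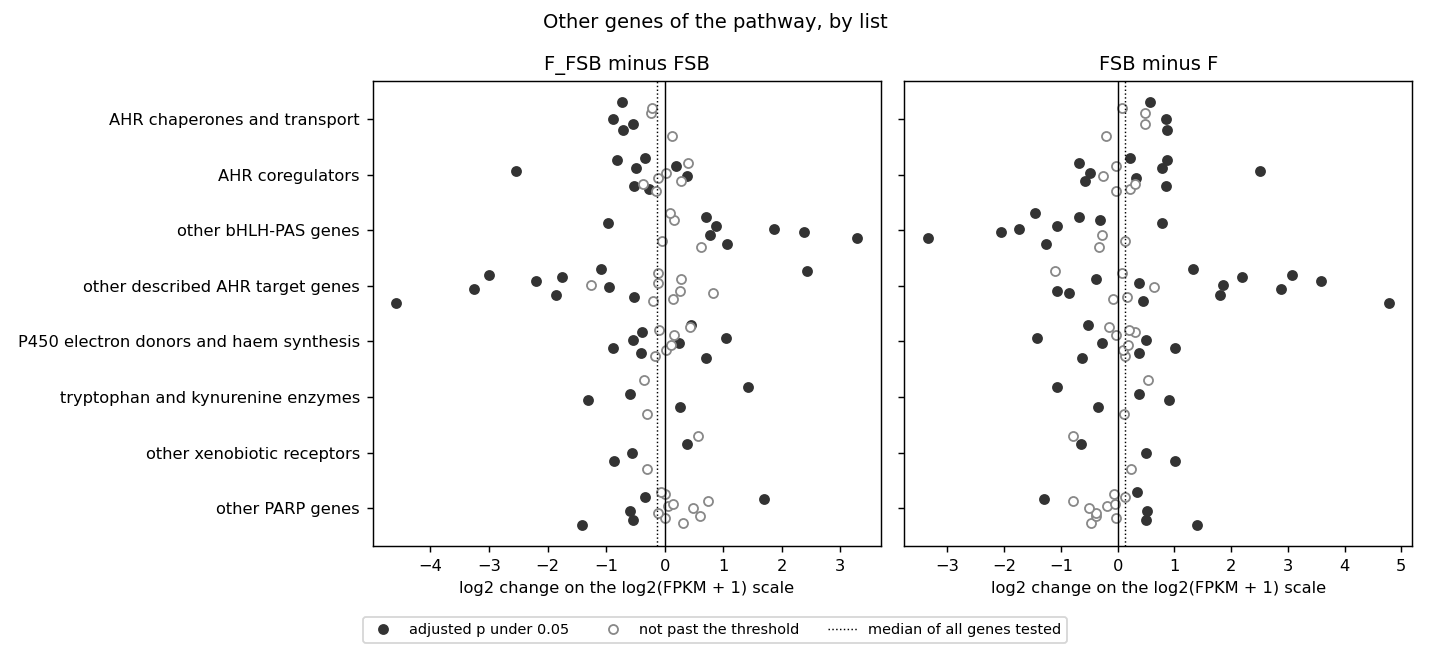
Log2 changes of the listed pathway genes that passed the filter, by list, for F_FSB minus FSB and FSB minus F on the log2(FPKM + 1) scale. Filled points passed the test, open points did not, and the dotted line is the median of all genes tested, at -0.13 and 0.14.

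Most other cytochrome P450 genes stayed under the filter. Of 55 CYP genes listed, 13 passed the filter, 11 of them outside the CYP1 family. In FSB 3 of the 11 (CYP2S1, CYP4X1 and CYP51A1) were higher and 1 (CYP2U1) was lower than in F, and in F_FSB 1 was higher and 3 were lower than in FSB, or 2 higher without F replicate 1 or F_FSB replicate 3. These counts stand beside 28.5% of all genes higher and 13.4% lower in FSB than in F. Between F_FSB and FSB, 13.7% of all genes were higher and 28.2% lower in F_FSB. CYP2S1 and CYP4X1 would fail the filter without FSB and CYP4V2 without F_FSB. Without these 3, 1 of 8 was higher and 1 lower in FSB than in F, and 1 was higher and 1 lower in F_FSB than in FSB. Only CYP1A1, CYP1B1 and CYP51A1 reached a mean of 5 FPKM in any group. CYP51A1, the sterol demethylase of cholesterol synthesis, averaged 49.1 ± 14.0 FPKM in F_FSB, 98.3 ± 11.9 in FSB and 40.4 ± 5.05 in F (SD, n = 3 each). Its log2 change was -1.02 for F_FSB minus FSB and 1.26 for FSB minus F (limma, BH-adjusted p = 0.00439 and 0.00183). By group mean CYP1A1 ranked above every other P450 gene in FSB. CYP51A1 led in F_FSB and F, ahead of CYP1B1 by less than the spread between libraries.

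Genes near the CYP1 loci were examined because the CYP1A genes lie in a dense stretch of chromosome 15. Of 15 loci within 250 kb of CYP1A1 or CYP1A2, 12 passed the filter. In FSB 8 of them were higher and none lower than in F, beside 28.5% of all genes higher and 13.4% lower, or 6 and 2 once scaled by median ratios. In F_FSB 1 was higher, SCAMP2, and 7 were lower than in FSB, beside 13.7% of all genes higher and 28.2% lower. The SCAMP2 call was lost without any 1 library other than FSB replicate 3 or F_FSB replicate 1. The nearest tested neighbours were EDC3, an mRNA decapping enhancer 23497 bases from CYP1A1, and CSK, a kinase that restrains SRC, 25484 bases from CYP1A2. EDC3 averaged 9.67 ± 0.395 FPKM in F_FSB, 17.9 ± 0.883 in FSB and 10.4 ± 0.138 in F, and rose by 0.72 in FSB relative to F (limma, BH-adjusted p = 0.00026). CSK averaged 19.7 ± 2.00 FPKM in F_FSB, 41.6 ± 0.493 in FSB and 20.6 ± 1.00 in F, and rose by 0.98 (limma, BH-adjusted p = 0.000194). ARID3B, an AT-rich DNA binding factor 121411 bases from CYP1A1, stood out with 1.59 ± 0.110 FPKM in F_FSB, 19.3 ± 3.81 in FSB and 1.25 ± 0.257 in F, a log2 change of -2.96 for F_FSB minus FSB and 3.17 for FSB minus F (limma, BH-adjusted p = 2.44e-05 and 1.78e-05). Near CYP1B1, 2 of 3 loci passed. FAM82A1, 461 bases away, averaged 1.71 ± 0.505 FPKM in F_FSB, 0.908 ± 0.173 in FSB and 1.41 ± 0.167 in F and did not pass between FSB and F (limma, BH-adjusted p = 0.121), though it was called lower without F_FSB replicate 3. In F_FSB it was higher than in FSB by 0.49 (limma, BH-adjusted p = 0.0391), a call that was lost without any 1 library other than F_FSB replicate 3. In FSB relative to F, ATL2 rose by 0.89 (limma, BH-adjusted p = 0.000773).

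Genes with the most similar profiles were sought by the root mean square difference of log2(FPKM + 1) values, centred on each gene, over 9 libraries and 12244 genes. All points share the same libraries, so this is a description. For CYP1A1 the closest was LIN28A, whose RNA-binding product restrains let-7 microRNAs, with a difference of 0.34. LIN28A was at 0.0136, 0.0529 and 0.0239 FPKM in F_FSB, 78.9, 74.3 and 85.4 FPKM in FSB, and 0.0142, 0.0188 and 0 FPKM in F. TAC1, MASP1 and IGDCC3 followed, at 0.52 to 1.04. For CYP1B1 the closest was ANGPTL4, a secreted lipase inhibitor, at 0.092, with 2.85, 9.70 and 3.05 FPKM in F_FSB, 0.390, 0.434 and 0.467 FPKM in FSB, and 3.65, 2.08 and 5.27 FPKM in F. PRSS35, TIMP1, GBP1 and TNFSF15 followed, at 0.28 to 0.34.

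For AHR the closest profiles were those of SDC2, CYR61, CTGF, TMEM169 and TPM1, at 0.21 to 0.29. CTGF, a matricellular gene, was at 308, 159 and 87.0 FPKM in F_FSB, 165, 209 and 162 FPKM in FSB, and 253, 40.8 and 55.9 FPKM in F. It shared with AHR the high F replicate 1 and the low F replicates 2 and 3. For ARNT2 the closest were C11orf41, NOX4, PHTF2, SUCNR1 and LPHN1, at 0.20 to 0.23. The group means of AHRR, ARNT and TIPARP spanned less than 1 on the log2 scale, so no similar genes were sought for them.

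**Figure D5:**
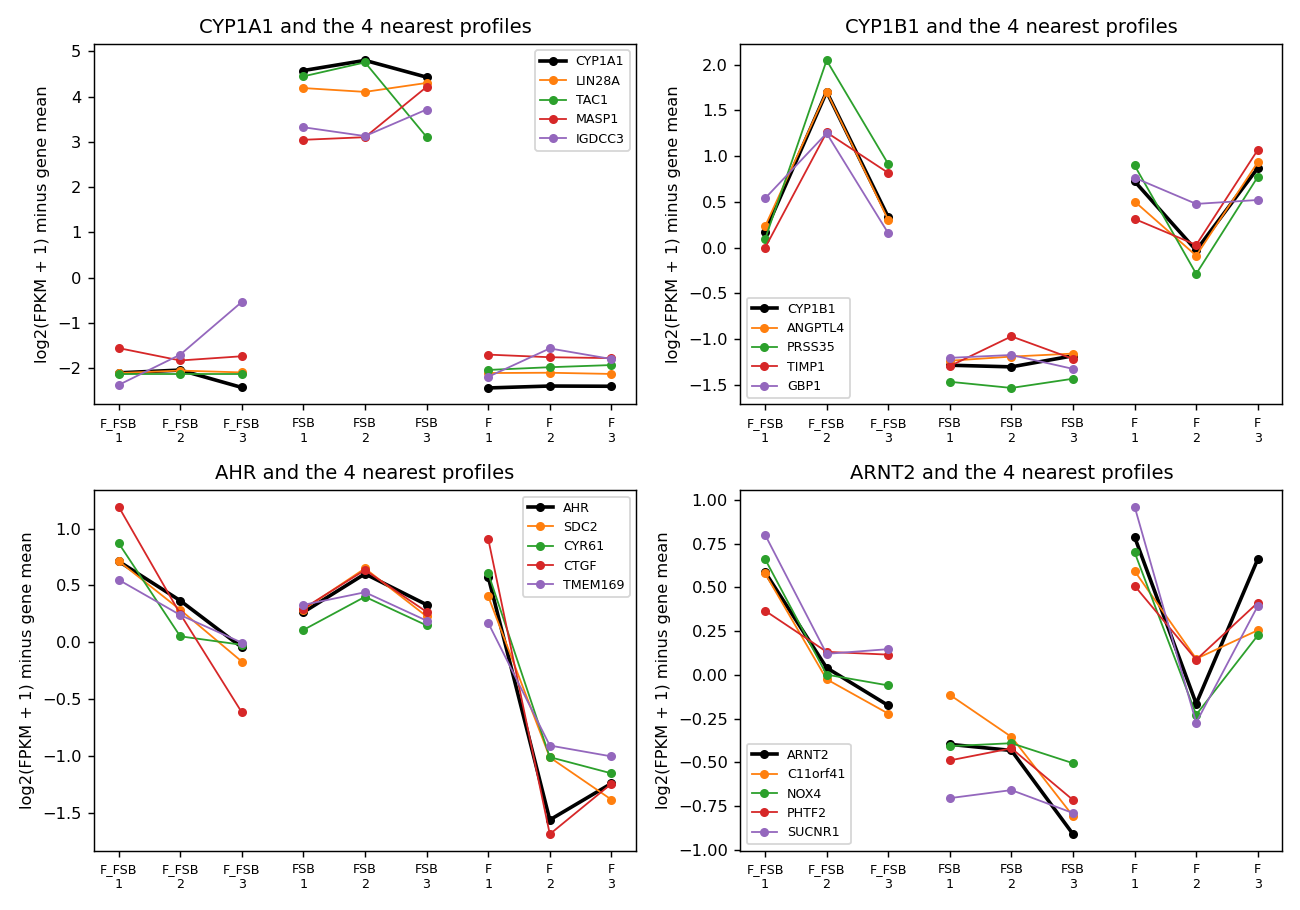
Centred log2(FPKM + 1) profiles of CYP1A1, CYP1B1, AHR and ARNT2 with their 4 most similar genes across the 9 libraries, where lines only guide the eye. CYP1A1 and LIN28A are high in FSB alone, and the AHR panel shows the high F replicate 1.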

How the data were processed

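Total RNA from 9 cultures was sequenced with a strand-specific SureSelect kit, per the labels' protocols. Values are FPKM from Cufflinks gene tables, normalized by the authors to transcript length and each library's mapped fragments, per the file headers. TopHat2 2.0.12, Cufflinks 2.1.1 and GRCh37 are listed in the submitters' processing notes, with no options or strand settings. Groups follow the treatment labels. Starts in the tables count from 0 and are given 1-based.

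Loci with a status other than OK in any library (95) were left out, and genes of at least 1 FPKM in at least 3 libraries were tested (13216). Values were taken as log2(FPKM + 1), with a pseudocount of 1, which understates changes of low genes. One limma 3.58.1 fit with trend (R 4.3.3) held all 9 libraries and compared F_FSB with FSB, FSB with F and F_FSB with F. Tests were two-sided, with a threshold of 0.05 on p-values adjusted over all of them by Benjamini-Hochberg. The SE beside each of the 8 genes comes from this fit, and differences between the 8 are descriptive. The test was checked on simulated data. Joining and drawing used matplotlib 3.10.9 and pandas 2.3.3 in Python 3.11.15.

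The 8 genes and the lists were chosen with earlier results of these data known. Named genes were up to 4 per list with the smallest adjusted p between FSB and F, P450 genes of at least 5 FPKM in a group mean, tested loci within 250 kb of a CYP1 gene and the 5 most similar profiles for each of the 8 whose group means differed by at least 1. A result that this rule would name for CYP1A1 is not reported here. Relative depth came from low genes whose ratio of Cufflinks interval to value matched between libraries, which leaves absolute depth unknown. Alternatives were another pseudocount, other filters, 3 scalings, the replicate block, fits of the compared groups alone and leaving out each library. List counts without genes that would fail the filter without 1 group were added after seeing the data.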

Additional observations from a re-analysis of the deposited data

How the results depend on the processing

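No alternative reversed the direction of a called value. With a pseudocount of 0.1, CYP1A1 differed by 9.55 for FSB minus F and -8.68 for F_FSB minus FSB. Leaving out 1 library at a time gave 6.92 to 7.10 and -6.88 to -6.68. With 1 library left out, genes called numbered 3880 to 5764 between FSB and F (5536 with all libraries) and 4070 to 5429 between F_FSB and FSB (5527 with all). Listed pathway genes called then numbered 40 to 56 (53 with all) and 38 to 49 (50 with all). Between F_FSB and F, 1 gene passed, 0 without the filter and 0 with the replicate block, and 0 to 77 when 1 library was left out, with 77 without F replicate 1. Listed pathway genes there numbered 0 to 3. With limma 1195 of all genes had an unadjusted p under 0.05 in that comparison.

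Of the calls between FSB and F, 68.0% were higher in FSB with deposited values, 49.6% with median ratios, 53.2% with quantile normalization and 61.8% with the same FPKM sum. Calls between F_FSB and FSB were 32.7%, 49.8%, 44.9% and 25.3% higher in F_FSB. The cause was not tested. Deviations of same-numbered libraries correlated at 0.2925 for replicate 1 of F_FSB and F and at -0.136 to 0.0995 for the other pairs, so the numbers were not taken to pair samples. With the replicate block the listed pathway genes called were 47 between FSB and F and 45 between F_FSB and FSB. HSP90AB1, AFMID, CCBL2, SCAMP2 and FAM82A1 were among the genes that lost a call. Higher calls between FSB and F then numbered 6 near CYP1A1 and CYP1A2 (8 without the block) and 4 for coregulators (6 without the block). The shallow F_FSB replicate 2 limits precision for low genes.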
